A study of Mus musculus with 35 samples.

Results

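The common gamma chain cytokine receptors are the receptor chains through which lymphocytes read interleukin (IL)-2, IL-4, IL-7, IL-9, IL-15 and IL-21. The 8 genes described here, Il2ra, Il2rb, Il2rg, Il4ra, Il7r, Il9r, Il15ra and Il21r, were taken by symbol from a table of counts for 55011 gene symbols. All 8 passed the filter on low counts, as did 15910 symbols in all. The cells were Tregs, regulatory T cells that hold back immune responses, sorted as CD4+ CD25+ cells from visceral adipose tissue (VAT) and from spleen. The donors were all retired breeders, wild-type C57BL/6 males of more than 35 weeks, under a cycle of 12 h light and 12 h dark. Cells were collected at 0, 4, 8, 12, 16 and 20 h after the lights came on (Zeitgeber time, ZT), and 1000 cells went into each library. The VAT groups held 3 libraries at each time except ZT20, which had 2, and the spleen groups held 3 at each time, for 17 VAT and 18 spleen libraries.

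Il2rg encodes the gamma chain that all of these receptors share. Each cytokine adds a chain of its own, and IL-2 and IL-15 also share the chain encoded by Il2rb. Binding brings together the kinases JAK1, held by the signalling partner chains, and JAK3, held by the gamma chain, and these phosphorylate STAT proteins that carry the signal to the nucleus. Tregs make little IL-2 themselves and depend on IL-2 from other cells, which they capture with the high-affinity receptor formed by the products of Il2ra, Il2rb and Il2rg. Resting T cells use the IL-7 receptor for survival, and Tregs are usually sorted as cells with little of it. The protein of Il2ra is CD25, on which these cells were sorted, so for this gene the gate and the tissue cannot be told apart.

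The genes lie on 5 chromosomes of GRCm38 (mm10), as whole genes in the GENCODE M21 annotation. Il2ra spans chr2:11642807-11693193 on the plus strand, and Il15ra, its next protein-coding neighbour 12096 bp further on, spans chr2:11705290-11734317 on the same strand. Il4ra (chr7:125552120-125579474) and Il21r (chr7:125603429-125633570) are also neighbours on the plus strand, 23954 bp apart. Il7r (chr15:9505788-9530176) and Il2rb (chr15:78479256-78495271) share a chromosome but not a neighbourhood. Il9r spans chr11:32187541-32200279, and Il2rg spans chrX:101264378-101268255. These last 4 genes are on the minus strand. Il2rg shares 728 exonic bases with Gm20489, and Il4ra shares 571 with the antisense gene Gm44876. Both overlapping genes drew few counts, which does not show how reads in the shared bases were assigned. Over all VAT and all spleen libraries Gm20489 had 0 and 3 counts and Gm44876 had 77 and 20, beside 104139 counts of Il2rg and 61339 of Il4ra over all 35.

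The 250 bases before the RefSeq start (GRCm38.p6) are shown for the gene with the largest difference between the tissues, Il9r (chr11:32200280-32200529, minus strand), and for 2 genes whose levels moved together over the VAT libraries, Il7r (chr15:9529877-9530126, minus strand) and Il2ra (chr2:11642542-11642791, plus strand). Capitals mark the letters TTCNNNGAA, the palindrome that STAT proteins bind.
Il9r: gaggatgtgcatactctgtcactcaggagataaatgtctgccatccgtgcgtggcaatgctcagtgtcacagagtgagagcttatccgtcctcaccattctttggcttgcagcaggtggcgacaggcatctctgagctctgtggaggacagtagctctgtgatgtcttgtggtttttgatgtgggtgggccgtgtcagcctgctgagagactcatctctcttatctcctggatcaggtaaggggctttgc
Il7r: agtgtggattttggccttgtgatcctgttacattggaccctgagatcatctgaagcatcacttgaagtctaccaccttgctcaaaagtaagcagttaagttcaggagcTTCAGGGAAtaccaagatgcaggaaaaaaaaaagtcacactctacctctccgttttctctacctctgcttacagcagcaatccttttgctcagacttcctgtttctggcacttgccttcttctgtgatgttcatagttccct
Il2ra: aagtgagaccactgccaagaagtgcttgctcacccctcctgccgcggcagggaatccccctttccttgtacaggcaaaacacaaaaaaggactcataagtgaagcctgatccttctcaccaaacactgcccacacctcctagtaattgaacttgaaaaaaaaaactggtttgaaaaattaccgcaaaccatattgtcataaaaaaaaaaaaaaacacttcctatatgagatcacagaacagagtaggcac
RefSeq windows were found for 7 of the 8 genes, as 8 windows, since Il15ra has a pair of them. The window of Il7r was the 1 of the 8 that held the STAT letters, as TTCAGGGAA, and 7.02% of all 32851 promoter windows of that length held them. That window of Il7r lies inside the span of the gene in the GENCODE M21 annotation, whose start is further upstream. The E-box CACGTG, which clock proteins bind, and the palindrome of the glucocorticoid receptor were in 0 of the 8 windows, against 6.02% and 0.387% of all windows. All motifs were searched on both strands, and a match is no more than these letters in this window.

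Total counts of the 35 libraries were between 2069319 and 6260185, and the median was 4104617 for VAT and 3181086.5 for spleen. Whether the replicates are different animals is not in the labels, so the p-values rest on a spread that may be technical, and handling before the sort cannot be told apart from the tissue. In sorted bulk samples, fewer cells of a type that expresses a gene and less RNA of it per cell cannot be told apart. The cells carried Treg transcripts in every library: the 6 Treg markers (Foxp3, Ikzf2, Ctla4, Tnfrsf18, Cd4 and Cd3e) summed to 5154 to 6661 CPM (counts scaled to a common library total) in VAT and 2493 to 3397 CPM in spleen. Most of that difference was Ctla4, with means of 2241 CPM in VAT and 401 CPM in spleen. Foxp3 averaged 711 and 521 CPM, and Cd3e went the other way, at 171 and 327 CPM. The 4 adipocyte markers reached at most 2.25 CPM in VAT and 2.88 CPM in spleen, and the 4 stromal markers 6.91 and 5.01 CPM. The lists for NK cells and for mast cells or basophils reached at most 5.00 CPM in VAT and 4.97 CPM in spleen. Macrophage or monocyte markers summed to 6.59 to 18.5 CPM in VAT and 19.7 to 76.3 CPM in spleen, dendritic cell markers to 14.5 to 54.9 CPM and 11.1 to 33.5 CPM, and CD8 T cell markers to 1.76 to 36.8 CPM and 6.36 to 21.2 CPM. Of the dendritic cell markers, Xcr1 averaged 20.1 CPM in VAT and 0.477 CPM in spleen, and Zbtb46 5.90 and 15.4 CPM.

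All 8 receptor genes differed between the tissues, 7 of them under each scaling tried and Il15ra not under all. Il2ra, Il2rg, Il7r, Il9r and Il15ra were higher in VAT Tregs, and Il2rb, Il4ra and Il21r were lower. With the libraries scaled by trimmed mean of M values (TMM) factors, the size ran from 33.1-fold for Il9r to small shifts for Il4ra and Il15ra. The contrast subtracted the average of the 6 spleen groups from the average of the 6 VAT groups and was tested with edgeR's quasi-likelihood test with Benjamini-Hochberg adjustment over all genes tested, at a threshold of 0.05, as are all adjusted p-values here. Such calls were common: 62.2% of all genes tested were called in this contrast, 28.4% higher in VAT and 33.8% lower. Libraries of the tissues that did not overlap were rarer, at 10.4% of genes, with 6.4% wholly higher and 4.02% wholly lower in VAT. By that measure 4 of the 8 receptor genes stood apart, namely Il2ra, Il7r and Il9r above and Il21r below. The group mean kept 1 direction at all 6 times in 7 of the 8 genes, all but Il4ra, and in 50.5% of all genes tested. The median log2 fold change was 0.51 over the 8 genes and -0.11 over all genes tested.

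The shared gamma chain gene Il2rg ranged from 693 to 1440 CPM in the VAT libraries, with a median of 939 CPM, and from 487 to 833 CPM in the spleen libraries, with a median of 559 CPM. All VAT libraries lay above all spleen libraries at 5 of the 6 times, and the 2 ranges overlapped when the times were joined. The mean was 984 ± 229 CPM in VAT and 615 ± 118 CPM in spleen (SD, n = 17 and 18), a log2 fold change of 0.70 ± 0.06 (estimate ± SE, adjusted p = 6.82e-12).

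Among the chains of the IL-2 and IL-15 receptors, Il2ra was higher and Il2rb lower in VAT Tregs. Il2ra ranged from 551 to 950 CPM in VAT (median 689 CPM) and from 311 to 407 CPM in spleen (median 349 CPM). Every VAT library was thus above every spleen library, and the log2 fold change was 0.96 ± 0.05 (means 678 ± 110 and 347 ± 24.2 CPM, adjusted p = 1.95e-19). The spread was wider in VAT, with a coefficient of variation of 16.3% against 7.0% in spleen. Il2rb, the signalling chain for both cytokines, ranged from 418 to 701 CPM in VAT (median 538 CPM) and from 581 to 934 CPM in spleen (median 764 CPM). Its VAT mean was the lower at 6 of 6 times, and all VAT libraries were below all spleen libraries at 5 of them. The log2 fold change of Il2rb was -0.48 ± 0.05 (means 544 ± 77.8 and 767 ± 104 CPM, adjusted p = 2.92e-10).

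Il15ra, whose product holds IL-15 for presentation to other cells, was the least abundant of the chains in VAT. Its libraries overlapped widely, from 25.6 to 53.0 CPM in VAT (median 39.9 CPM) and from 20.2 to 47.8 CPM in spleen (median 33.0 CPM). The counts behind these values were 83 to 221 per VAT library and 63 to 211 per spleen library. The log2 fold change was 0.33 ± 0.10 (means 39.8 ± 8.49 and 31.8 ± 7.42 CPM, adjusted p = 0.00642). Of the 8 genes Il15ra was the 1 whose direction depended on the scaling: scaled by library totals and not by TMM factors, it was at -0.02 (log2, adjusted p = 0.908). That scaling moved the median of all genes to -0.45, and the other 7 genes kept their direction and their call under it, Il2ra at 0.61, Il2rg at 0.355, Il2rb at -0.825 and Il4ra at -0.60. With the slope of counts on gene length, described further on, as a covariate, Il15ra was at 0.66 and Il4ra at -0.43.

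Il7r, the IL-7 receptor alpha chain, was higher in VAT in every library. It ranged from 697 to 1161 CPM in VAT (median 831 CPM) and from 263 to 635 CPM in spleen (median 357 CPM). The log2 fold change was 1.22 ± 0.06 (means 879 ± 140 and 378 ± 103 CPM, adjusted p = 2.37e-20). Markers of conventional CD4 T cells, which carry more of this receptor, summed to less in VAT: Cd40lg, Tcf7, Ifng, Il17a and Il4 together had 22.8 to 107 CPM in VAT and 210 to 305 CPM in spleen. Most of the spleen sum was Tcf7, with means of 7.22 CPM in VAT and 225 CPM in spleen, while Cd40lg averaged 52.4 CPM in VAT and 22.3 CPM in spleen, and Ifng, Il17a and Il4 averaged at most 1.73 CPM in either tissue. The part of such cells in the Il7r level was not tested.

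Il9r, the specific chain of the receptor for IL-9, a cytokine of type 2 responses, had the largest difference of the family. It ranged from 114 to 152 CPM in VAT (median 132 CPM) and from 0.567 to 10.6 CPM in spleen (median 3.63 CPM). The groups were far apart, and the VAT libraries were closer to each other in relative terms than for any other member, with a coefficient of variation of 8.1% in VAT against 68.0% in spleen. The spleen values rest on 3 to 46 counts per library, the VAT values on 270 to 725. The log2 fold change was 5.05 ± 0.16 (means 132 ± 10.7 and 4.76 ± 3.23 CPM, adjusted p = 4.43e-24), and 173 genes of those tested had one as large or larger. By time it ran from 4.33 ± 0.36 at ZT0 to 7.09 ± 0.46 at ZT20, where the 3 spleen libraries held 6, 3 and 4 counts (1.03, 0.567 and 1.44 CPM) and the 2 VAT libraries 115 and 152 CPM. Innate lymphoid cells of fat also carry this receptor. Of 6 markers of type 2 innate lymphoid cells, summing to 2464 to 5342 CPM in VAT and 40.4 to 109 CPM in spleen, Klrg1 made up nearly all (means 3145 and 54.0 CPM). Il5 averaged 21.8 CPM in VAT and 0.116 CPM in spleen and Il13 0.236 CPM in VAT, with 0 counts in spleen. Rnf128 averaged 92.0 and 5.23 CPM in VAT and spleen and Arg1 7.52 and 2.085 CPM. Il17rb went the other way, at 4.87 and 5.58 CPM. The part of such cells in the Il9r level was not tested.

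Il4ra, the chain that binds IL-4 and, with Il13ra1, IL-13, had a small difference with TMM factors and a larger one, -0.60 in log2, with library totals. It ranged from 251 to 697 CPM in VAT (median 411 CPM) and from 400 to 579 CPM in spleen (median 526 CPM). The VAT mean was the lower at 5 of 6 times, while at ZT12 it was 567 ± 168 CPM in VAT, against 524 ± 58.7 CPM in spleen (SD, n = 3 each). The log2 fold change over all times was -0.25 ± 0.06 (means 442 ± 114 and 503 ± 60.2 CPM, adjusted p = 6.76e-04). Without the ZT20 libraries it was -0.18, with an adjusted p of 0.0252.

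Il21r, the receptor for IL-21 from helper T cells, was lower in VAT in every library. It ranged from 181 to 272 CPM in VAT (median 220 CPM) and from 343 to 548 CPM in spleen (median 427 CPM). The log2 fold change was -0.95 ± 0.05 (means 219 ± 24.2 and 430 ± 63.4 CPM, adjusted p = 6.20e-18). B cells also carry this receptor. The 5 B cell markers summed to 93.6 to 302 CPM in VAT and 1197 to 3084 CPM in spleen, of which Ighm was nearly all (means 159 and 1804 CPM), while Ms4a1 averaged 1.14 and 0.457 CPM and Cd79a 1.63 and 3.26 CPM. Their part in the Il21r level was not tested.

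**Figure D1:**
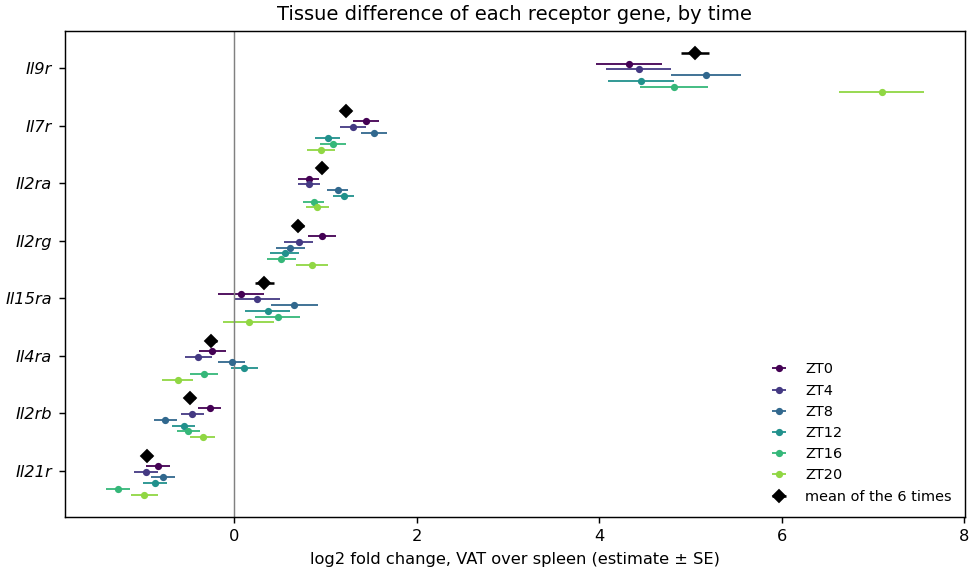
Log2 fold change of each receptor gene, VAT over spleen (x axis), at each of the 6 times (coloured points) and over the mean of the times (diamonds), with bars of 1 SE. Il9r stands far to the right with its largest value, 7.09, at ZT20, and the points of Il2ra and Il7r are all above 0 and those of Il21r and Il2rb all below 0, while those of Il4ra lie on both sides.

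Set against exonic length, so that genes can be compared with each other, the order of the chains differed between the tissues. Levels here are CPM per kb of exons in the annotation. In VAT the order was Il2rg (412 ± 95.8 CPM per kb, SD, n = 17), Il7r (188 ± 30.0), Il2rb (127 ± 18.1), Il2ra (119 ± 19.3), Il4ra (73.7 ± 19.1), Il21r (66.0 ± 7.29), Il9r (26.8 ± 2.17) and Il15ra (8.95 ± 1.91). Neighbours kept this order in 17 of 17 VAT libraries except Il2rb over Il2ra and Il4ra over Il21r, each of which held in 12 of 17, so these pairs were not separated by their spread. In spleen the order was Il2rg (258 ± 49.6 CPM per kb, SD, n = 18), Il2rb (179 ± 24.2), Il21r (129 ± 19.1), Il4ra (83.8 ± 10.03), Il7r (81.2 ± 22.2), Il2ra (60.7 ± 4.24), Il15ra (7.15 ± 1.67) and Il9r (0.961 ± 0.654). Here Il4ra was over Il7r in 13 of 18 libraries and Il7r over Il2ra in 16 of 18, and the other neighbours kept their order in 18 of 18. Il2rg thus led in both tissues, while Il7r came next in VAT but below Il2rb in spleen, and Il21r was below Il2ra and Il2rb in VAT but above Il2ra in spleen.

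**Figure D2:**
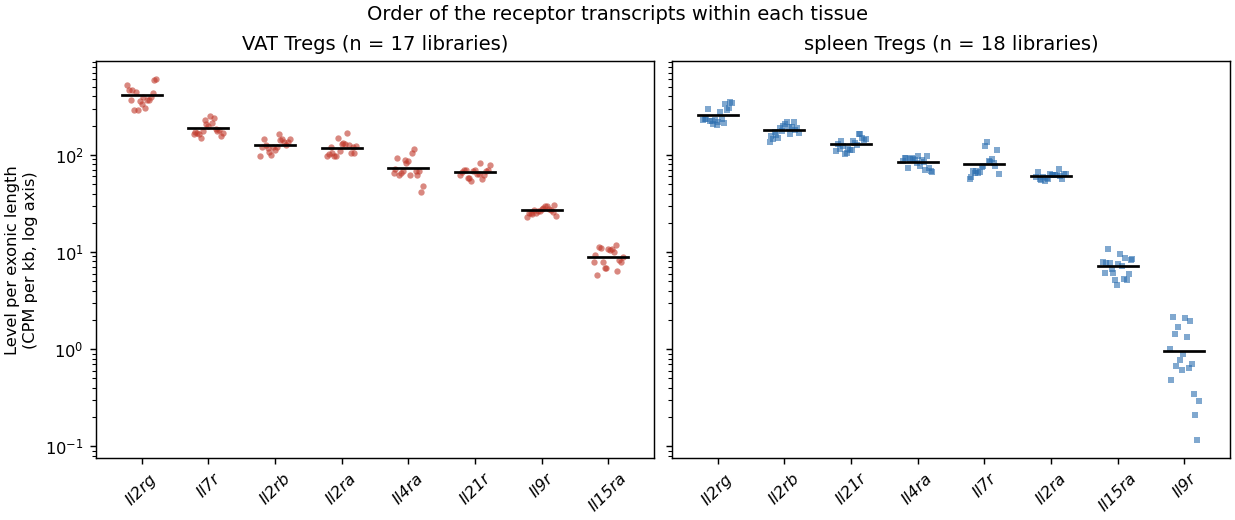
Level of each receptor transcript per kb of exonic length on a log axis, in VAT Tregs (left) and spleen Tregs (right). Points are libraries, bars are means, and genes run from the highest mean to the lowest within each tissue. Il2rg leads in both, and Il9r lies near 26.8 CPM per kb in VAT and near 0.961 in spleen.

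The ratio of receptor chains within a library does not depend on the scaling between libraries. Il2ra over Il2rb was 0.949 ± 0.191 in VAT (0.774 to 1.51) and 0.345 ± 0.046 in spleen (0.281 to 0.442), on the scale per kb, so the 2 tissues did not overlap. Il7r over Il2rb did not overlap either, at 1.51 ± 0.336 in VAT (1.15 to 2.32) and 0.450 ± 0.080 in spleen (0.359 to 0.626). Both ratios set a gene that was higher in VAT over one that was lower there. The other ratios taken between 2 chains overlapped. Il2rg over Il2rb ran from 1.86 to 5.44 in VAT and from 1.03 to 2.02 in spleen. Il2ra over Il7r ran from 0.528 to 0.738 in VAT and from 0.461 to 1.12 in spleen. Il2ra over Il15ra averaged 13.8 ± 3.65 in VAT and 8.94 ± 2.18 in spleen. How often ratios of other gene pairs separate the tissues was not tested. Il2rg over the summed level of the other 7 chains was 0.692 ± 0.207 in VAT and 0.477 ± 0.084 in spleen, with overlapping ranges. By time, this last ratio averaged 0.811, 0.736, 0.514, 0.496, 0.667 and 1.04 in VAT and 0.482, 0.491, 0.408, 0.398, 0.474 and 0.606 in spleen at ZT0, 4, 8, 12, 16 and 20. It was lowest at ZT12 and highest at ZT20 in both tissues. Il2rg has the shortest exonic length of the family. The slope of counts on gene length, described further on, was lowest at ZT20 in both tissues and highest at ZT12 in VAT. The course of this ratio and that slope cannot be told apart in these libraries. The summed level of the other 7 chains averaged 610 ± 70.2 CPM per kb in VAT and 542 ± 53.0 CPM per kb in spleen over all times.

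**Figure D3:**
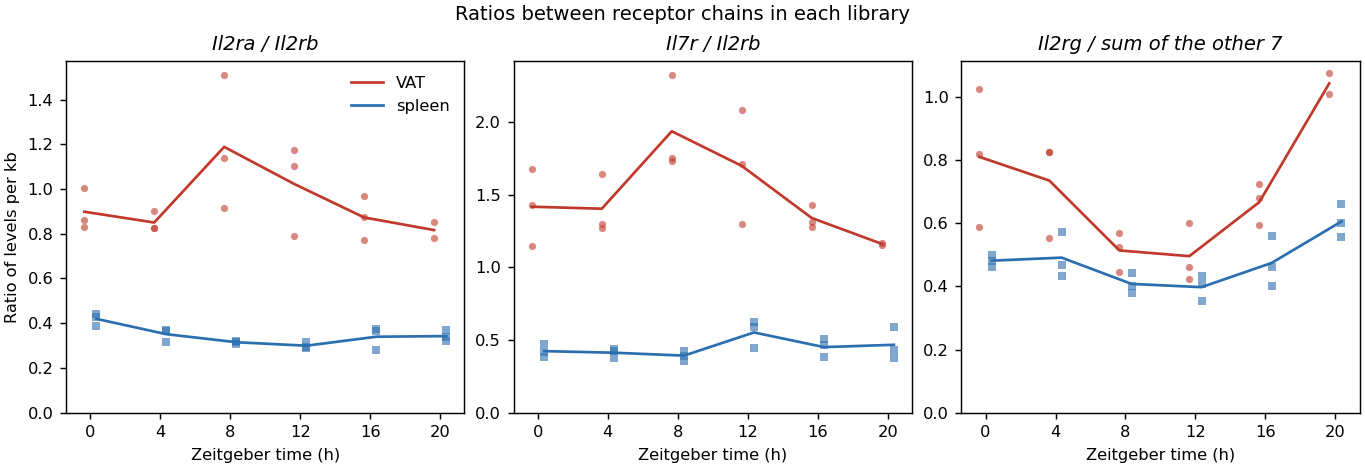
Ratio of levels per kb within each library (y axis) against Zeitgeber time for Il2ra over Il2rb, Il7r over Il2rb, and Il2rg over the sum of the other 7 chains. Points are libraries, lines join group means, VAT in red and spleen in blue. The first 2 ratios do not overlap between the tissues at any time, and the last is highest at ZT20 in both, at 1.04 in VAT and 0.606 in spleen. The slope of counts on gene length is lowest at ZT20 in both tissues.

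Over the day, 2 of the 8 receptor genes passed the test for a 24 h rhythm in VAT, Il2ra and Il2rg, and 2 in spleen, Il7r and Il2rb. No gene passed in both tissues. The test fitted 24 h cosine and sine terms within each tissue, and each amplitude is the log2 distance between the fitted peak and trough. Over all genes tested the same rule called 1.88% in VAT and 1.99% in spleen. The median amplitude was 0.38 over the 8 genes in VAT, against 0.52 over all genes there, and 0.44 in spleen, against 0.48 over all genes there.

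**Figure D4:**
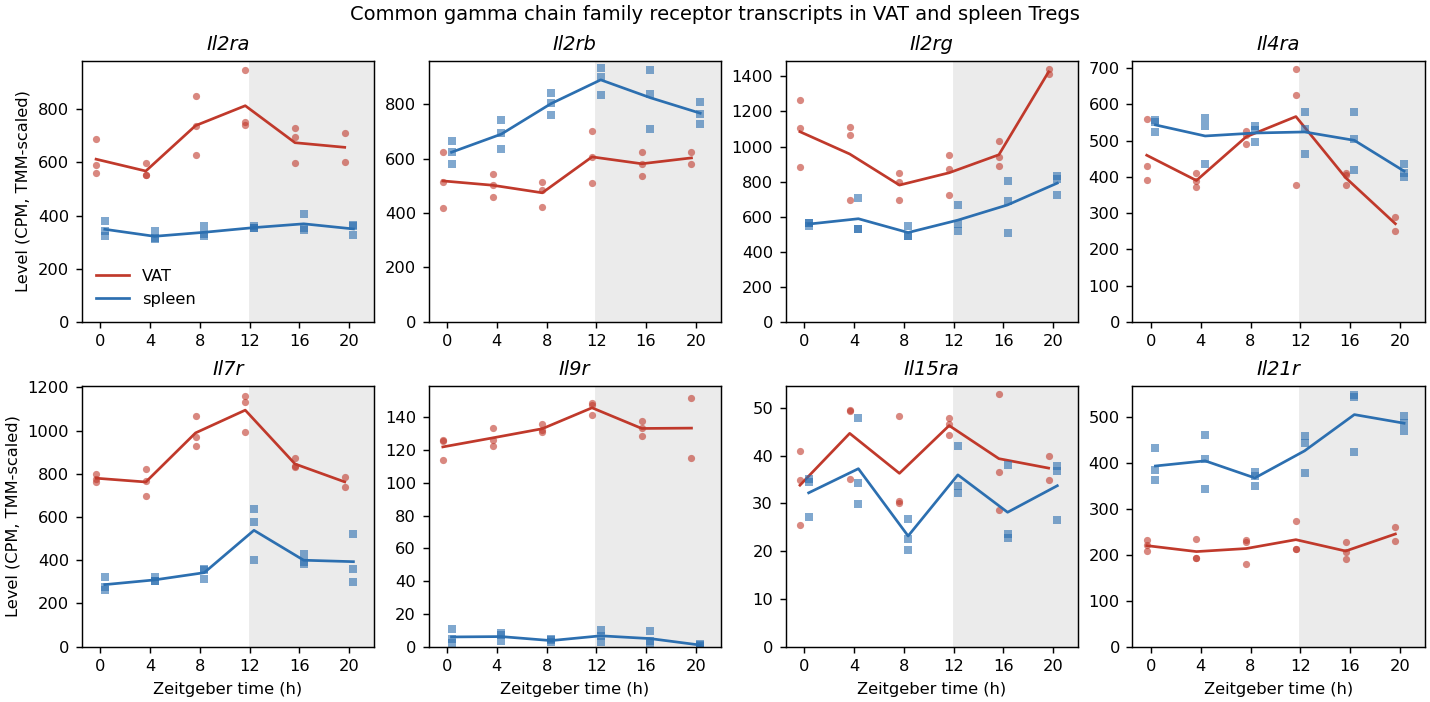
Level of each receptor transcript in CPM (y axis, from 0) against Zeitgeber time in hours. Circles and red lines are VAT libraries and their means, squares and blue lines spleen, and grey marks the dark phase. Il2ra and Il7r of VAT are highest at ZT12 and Il2rg at ZT20, and in spleen Il7r and Il2rb are highest at ZT12.

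In VAT, Il2ra was highest at the change from light to dark. Its 3 libraries at each time had 560, 589 and 689 CPM at ZT0, 598, 553 and 551 CPM at ZT4, 851, 628 and 737 CPM at ZT8, 751, 740 and 950 CPM at ZT12, and 729, 600 and 694 CPM at ZT16, and the 2 at ZT20 had 603 and 711 CPM. All libraries of ZT8 and ZT12 were above all of ZT4, and so were those of ZT16 and ZT20, by a small margin. The fitted amplitude was 0.42 ± 0.10 with a peak at ZT12.3 (adjusted p = 0.0425). This call was close to the threshold and was lost in 11 of the 35 fits that left out 1 library, with an adjusted p of up to 0.122 without replicate D of VAT at ZT12. It was also lost without the ZT20 libraries (amplitude 0.44, adjusted p = 0.151), with VAT fitted alone (0.163), with the slope of counts on gene length as a covariate (0.122) and with DESeq2 size factors (0.0518). In spleen the 6 means of Il2ra ran only from 322 to 369 CPM, with an amplitude of 0.16 ± 0.10 (adjusted p = 0.667).

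Il2rg in VAT was highest late in the dark phase. It had 1265, 1107 and 881 CPM at ZT0, 1112, 693 and 1067 CPM at ZT4, 694, 848 and 798 CPM at ZT8, 954, 725 and 871 CPM at ZT12, 886, 939 and 1034 CPM at ZT16, and 1413 and 1440 CPM at ZT20. Both ZT20 libraries were above every other VAT library. The amplitude was 0.69 ± 0.15 with a peak at ZT21.2 (adjusted p = 0.0191), and the call was lost in 3 of 35 fits that left out 1 library: replicate B of VAT at ZT8, and replicate A or C of VAT at ZT20, with adjusted p of up to 0.095. It was also lost with VAT fitted alone (0.67, adjusted p = 0.0723). The spleen mean was also highest at ZT20, where the libraries had 724, 833 and 817 CPM, and the libraries of the other times had 487 to 805 CPM. There the amplitude of 0.49 ± 0.14 with a peak at ZT19.0 did not pass (adjusted p = 0.0947), though it did without the filter (0.00286), with DESeq2 (0.0334) and with spleen fitted alone (0.0451).

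A technical measure moved with this course. From the log2 CPM of each gene its mean over all libraries was subtracted, and the slope on log2 gene length was taken within each library. It averaged -0.0651 in VAT at ZT20, against 0.0165 to 0.0585 at the other VAT times. In spleen it averaged -0.0682 at ZT20, against -0.0526 to 0.0078 at the other times. More negative values mean more counts on short genes than in the average library. Il2rg has the shortest exonic length of the family (2387 nt) and Il4ra the longest (6002 nt). With this slope as a covariate the amplitude of Il2rg was 0.37 in VAT (adjusted p = 0.382) and 0.20 in spleen (adjusted p = 0.77). Without the ZT20 libraries that of VAT was 0.50 (adjusted p = 0.407). The Il2rg course and the slope cannot be told apart in these libraries.

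Il4ra was lowest at ZT20 in both tissues. VAT libraries had 391, 429 and 559 CPM at ZT0, 371, 388 and 411 CPM at ZT4, 526, 491 and 515 CPM at ZT8, 377, 625 and 697 CPM at ZT12, 406, 376 and 411 CPM at ZT16, and 251 and 290 CPM at ZT20. The 2 ZT20 libraries were the lowest, and the ZT12 libraries were split, with replicate A below the others. The amplitude was 0.62 ± 0.17 with a peak at ZT9.0 and did not pass (adjusted p = 0.0787). It was called when replicate C of VAT at ZT0 was left out (0.79, adjusted p = 0.00551), in the test for any difference among the 6 times (adjusted p = 0.00308), with DESeq2 (0.0305) and without the filter (0.00146). The amplitude was 0.26 with the length slope as a covariate (adjusted p = 0.684) and 0.36 without the ZT20 libraries (adjusted p = 0.654). In spleen Il4ra had 437, 411 and 400 CPM at ZT20 and group means of 501 to 544 CPM at the other times (24 h test, adjusted p = 0.764).

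Il7r in spleen had the lowest adjusted p of the family for a rhythm. Its libraries had 263, 278 and 321 CPM at ZT0, 303, 321 and 303 CPM at ZT4, 313, 354 and 360 CPM at ZT8, 578, 635 and 403 CPM at ZT12, 391, 427 and 383 CPM at ZT16, and 361, 520 and 300 CPM at ZT20. All libraries of ZT12 were above all of ZT0, ZT4 and ZT8, while ZT20 was spread over most of the range. The amplitude was 0.76 ± 0.13, or 1.69-fold, with a peak at ZT13.8 (adjusted p = 0.00478). The call held in all 35 fits that left out 1 library, with adjusted p of 0.000571 to 0.0172, and with the length slope as a covariate (0.75, adjusted p = 0.00431).

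In VAT, Il7r was also highest at ZT12. It had 761, 799 and 778 CPM at ZT0, 767, 697 and 822 CPM at ZT4, 1068, 971 and 928 CPM at ZT8, 1161, 992 and 1130 CPM at ZT12, 871, 831 and 835 CPM at ZT16, and 738 and 787 CPM at ZT20. All libraries of ZT8 and ZT12 were above all libraries of the other times. The amplitude of 0.52 ± 0.13 with a peak at ZT11.0 just missed the threshold (adjusted p = 0.0573), and it passed in 6 of the 35 fits without 1 library, with library totals, without the filter, with DESeq2, with VAT fitted alone and in the test for any difference among the times (adjusted p = 0.0372). It moved away from the threshold with the length slope (0.193), the replicate block (0.108) and no ZT20 libraries (0.186).

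Il2rb in spleen had its highest values at ZT12 and its lowest at ZT0. Its libraries had 581, 665 and 626 CPM at ZT0, 741, 694 and 637 CPM at ZT4, 804, 762 and 842 CPM at ZT8, 901, 934 and 836 CPM at ZT12, 709, 839 and 925 CPM at ZT16, and 766, 808 and 728 CPM at ZT20. Every library of ZT8, ZT12, ZT16 and ZT20 was above every library of ZT0. The amplitude was 0.46 ± 0.10 with a peak at ZT12.9 (adjusted p = 0.0304). This call was lost in 9 of 35 fits without 1 library, with adjusted p of up to 0.0765, and held with the slope covariate (0.46, adjusted p = 0.0322) and without ZT20 (0.50, adjusted p = 0.0236), but was lost in the test for any difference among the 6 times (adjusted p = 0.0852). In VAT the means of Il2rb ran from 475 CPM at ZT8 to 607 CPM at ZT12 (amplitude 0.33 ± 0.11, adjusted p = 0.162).

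The other chains did not pass in either tissue. Il21r in spleen came near, with group means of 393, 404, 367, 426, 504 and 486 CPM at the 6 times (amplitude 0.42 ± 0.11, peak at ZT17.6, adjusted p = 0.0658), and in VAT its means stayed between 207 and 245 CPM (0.10 ± 0.12, adjusted p = 0.874). The spleen rhythm of Il21r passed with DESeq2 size factors (0.0473), with DESeq2 (0.0129), with spleen fitted alone (0.0405) and with the replicate block (0.0494), and had an adjusted p of 0.299 with the length slope. Il9r in VAT ran from 122 CPM at ZT0 to 146 CPM at ZT12 (0.20 ± 0.32, adjusted p = 0.931). In spleen the low ZT20 counts of Il9r gave an amplitude of 0.95 ± 0.49 that did not pass the 24 h test (adjusted p = 0.57), while the test for any difference among the 6 times called it (adjusted p = 0.0272). Il15ra had means of 33.8 to 46.3 CPM in VAT (adjusted p = 0.803) and 23.2 to 37.3 CPM in spleen (adjusted p = 0.906).

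The courses of the tissues were also tested against each other, as the difference of their 24 h terms. None of the 8 genes passed, with adjusted p of 0.523 to 0.826 by edgeR's quasi-likelihood test, and DESeq2 called 0 of them as well. At an unadjusted p under 0.05 there were 3, Il2ra (0.0434), Il2rb (0.045) and Il7r (0.0405). Over all genes tested 0.00629% passed this test adjusted and 9.09% unadjusted. That Il2ra was called in VAT alone and Il7r and Il2rb in spleen alone therefore does not show that their rhythms differ between the tissues.

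**Figure D5:**
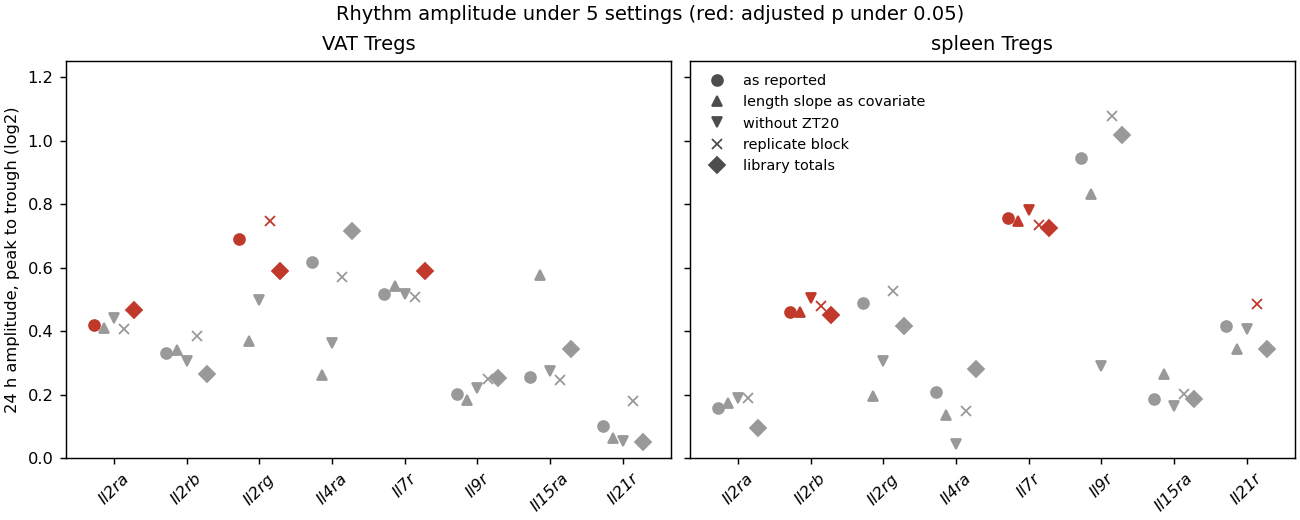
Amplitude of the 24 h fit, peak to trough in log2 (y axis), of each receptor gene in VAT (left) and spleen (right) under 5 settings shown by marker shape. Red marks an adjusted p under 0.05. Il7r in spleen stays red in all 5 settings near 0.75, while Il2rg in VAT turns grey and drops to 0.37 with the length slope as a covariate.

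The genes that work with these receptors were counted from 5 lists of 34 genes, of which 29 were tested. In VAT 11 of the 29 were higher and 12 lower, against 28.4% and 33.8% of all genes tested. With library totals for scaling the split was 8 higher and 17 lower. Of the 8 kinases and transcription factors, 0 were higher and 5 lower in VAT. Jak1, the kinase of the partner chains, had 732 ± 177 CPM in VAT Tregs and 829 ± 166 CPM in spleen Tregs (log2 fold change -0.22 ± 0.09, adjusted p = 0.0371). Jak3, the kinase of the gamma chain, had 322 ± 63.8 CPM in VAT Tregs, against 318 ± 42.5 CPM in spleen Tregs, and did not pass (-0.03 ± 0.07, adjusted p = 0.755), though with library totals it was at -0.37 and did (adjusted p = 1.27e-05). The STAT genes of IL-2 signalling were lower in VAT, Stat5a at 83.8 ± 18.8 and 157 ± 21.04 CPM (-0.94 ± 0.08, adjusted p = 3.77e-13) and Stat5b at 97.8 ± 23.4 and 170 ± 41.8 CPM (-0.82 ± 0.09, adjusted p = 2.79e-10). Stat6, the factor of IL-4 signalling, was at -0.33 ± 0.06 (adjusted p = 1.13e-05).

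Of the 7 inhibitors 4 were higher and 3 lower, in a contrast that called 28.4% of all genes tested higher and 33.8% lower. Cish, an inhibitor that STAT5 induces, had 1391 ± 189 CPM in VAT and 272 ± 40.8 CPM in spleen (2.37 ± 0.06, adjusted p = 1.79e-30), and Socs2 178 ± 34.4 and 50.3 ± 9.48 CPM (1.83 ± 0.09). Socs3, an inhibitor of IL-6 family signalling, fell to 75.8 ± 18.3 CPM in VAT, against 185 ± 30.5 CPM in spleen (-1.31 ± 0.09), and the phosphatase gene Ptpn6 had 140 ± 35.0 and 413 ± 55.9 CPM (-1.55 ± 0.07). With library totals 2 of this list were higher and 3 lower. Of the 8 genes known to be induced by these cytokines, 4 were higher and 1 lower, and with library totals 4 were higher and 4 lower. Gzmb, a protease of cytotoxic granules, had 189 ± 82.5 CPM in VAT and 8.51 ± 6.75 CPM in spleen (4.64 ± 0.30), the kinase gene Pim1 273 ± 53.2 and 55.0 ± 13.3 CPM (2.31 ± 0.11), and the cyclin gene Ccnd2 1393 ± 180 and 614 ± 61.7 CPM (1.19 ± 0.05). The survival gene Bcl2 went the other way, with 24.2 ± 13.2 CPM in VAT and 437 ± 54.4 CPM in spleen (-4.26 ± 0.18, adjusted p = 5.09e-17).

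The ligands themselves were near the limit of detection in these cells. Of 8 ligand genes 4 were tested, and none averaged more than 2.49 CPM in either tissue. The calls put Il2 (1.06 and 0.229 CPM in VAT and spleen) and Il7 (2.49 and 0.839 CPM) higher in VAT. They put Il15 (0.313 and 1.17 CPM) and Il21 (0.739 and 1.61 CPM) lower. The call of Il7 did not hold with library totals. Over all VAT and all spleen libraries Il2 had 67 and 16 counts, Il7 159 and 70, Il15 17 and 77, and Il21 44 and 107. Genes this low can pass the filter through the tissue where they are higher, so these calls do not settle a direction. Of the partner chains outside the family, Crlf2, which joins the Il7r product to form the receptor for thymic stromal lymphopoietin, had 20.99 ± 3.81 CPM in VAT and 11.2 ± 2.21 CPM in spleen (0.91 ± 0.12, adjusted p = 1.38e-08). Il13ra1, which joins the Il4ra product in a receptor for IL-4 and IL-13, had 0.170 and 4.61 CPM (-5.17 ± 0.58, adjusted p = 1.43e-09). These values rest on 11 counts over all VAT libraries and 310 over all spleen libraries, so the size of this fold change is not well measured. Over the day 1 of the 29 genes was rhythmic in VAT, Ptpn6 (adjusted p = 0.0103), against 1.88% of all genes. In spleen 3 were rhythmic, Cish (0.0362), Sh2b3 (0.0205) and Myc (0.0446), against 1.99% of all genes. Of the 29 genes, 0 differed in rhythm between the tissues. The rhythm calls of these genes were not tried under other settings or with 1 library left out.

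Likeness of pattern was described by the Pearson correlation of log2 CPM, across all genes tested, with no test. Over the 17 VAT libraries, which share the tissue and its 6 times, Il7r was most like the clock gene Per1 (r = 0.847), and Il7r and Il2ra had r = 0.789 with each other, which put Il7r next after Fez1 (0.798) among all genes for Il2ra. Over the 18 spleen libraries Il2ra and Il7r had r = 0.358, and Il7r had r = 0.766 with Il2rb and was most like Pik3ip1 (0.903). Il2rb in spleen had Cish, the inhibitor named above, next after Adgre5 (0.856) among all genes (0.823). Il2rg and Il4ra ran against each other in both tissues (r = -0.723 in VAT and -0.798 in spleen), in libraries that also differed in the length slope. In spleen Il2rg was most like the class I genes H2-D1 (0.983) and H2-K1 (0.978), and it had r = 0.833 with Il21r. In VAT it was most like Sec13 (0.952). Il4ra was most like Ddhd2 in VAT (0.94) and Edem1 in spleen (0.952), Il2rb like Eif4ebp2 in VAT (0.816), and Il21r like Tmem14a in VAT (0.788) and Akr1b3 in spleen (0.91). Il2ra in spleen, where its coefficient of variation was 7.0%, was most like the early gene Fosb (0.804). Fosb had a log2 fold change of 8.89, VAT over spleen. Il9r was most like Pcyox1 in VAT (0.762) and Upf2 in spleen (0.823), and Il15ra like Fam122a in VAT (0.79) and Tmprss13 in spleen (0.758). The spleen match of Il9r rests on 3 to 46 counts of Il9r per library.

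Over the 12 group means, where the difference between the tissues carries most of the variation, the closest genes were Gm6093 (r = 0.994), Nptn and Per1 for Il2ra, and Zfp277 (0.952), Hmga1 and Mta1 for Il2rb. They were Capzb (0.991), Itm2b and Fth1 for Il2rg, and Ubr1 (0.986), Ctdspl2 and Glyr1 for Il4ra. For Il7r they were Myo6 (0.979), Ceacam16 and Dgat2, and for Il9r Ero1l (0.994), Gm28875 and Msrb3. Il21r was closest to Itm2a (0.992), Stard5 and Gm16085. Il15ra, the least abundant chain of VAT, had the loosest matches, Pex11a (0.896), Kif11 and Gm37198.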

How the data were processed

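RNA of 1000 sorted cells per library was primed with oligo-dT, amplified by PCR, made into Nextera XT libraries and sequenced as paired reads of 25 nt, per the labels' protocols. The authors deposited raw counts per gene symbol. The submitters' processing notes name STAR 2.7.3a, featureCounts and mm10. Annotation, strand setting and the version of featureCounts are not stated there, so overlapping genes on either strand may share reads. Amplified reads carry no molecular identifiers and are not independent molecules. Every column of the count table was a library of the series, and 0 columns were left unused. No pair of libraries of a group, of 34, agreed within sampling noise (chi-square per gene 4.3 to 22.7).

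Tests used edgeR 4.0.16 (R 4.3.3): filterByExpr over the 12 groups of tissue and time, TMM factors, and robust quasi-likelihood fits with Benjamini-Hochberg adjustment over 15910 genes at a threshold of 0.05. Tissues were compared over the mean of 6 times, and rhythm as a cosine and a sine of 24 h within each tissue in 1 model of all 35 libraries. CPM are the deposited counts scaled by the library's total over the genes tested and its TMM factor, and log2 CPM for correlations used a prior count of 2. The scaling by library totals used the total over all symbols. The tests were run on simulated counts with the same spread for every gene, no length slope, and rhythms planted in VAT alone. Those rhythms were larger than any VAT amplitude of the 8 genes, so the check does not cover smaller rhythms or the slope. Exonic lengths came from GENCODE M21, which matched 52936 symbols by name, and promoter windows from RefSeq. Alternatives were other scalings, no filter, DESeq2 1.42.0, a replicate block, the length slope, 1 tissue alone, no ZT20, any difference among the times, and leaving out each library. Named genes were the 8 receptor genes; from each pathway list all called genes or, where more than 4 were called, the 4 with the largest absolute log2 fold change, plus Jak1, Jak3, Stat5a and Stat5b; and the 3 genes most correlated with each receptor gene over the group means and over each tissue's libraries, of which the first is printed for most. Some genes that the rule or the lists name are not reported here. The genes and lists were chosen with earlier results of these data known.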

Additional observations from a re-analysis of the deposited data

How the results depend on the processing

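Between the tissues, 5 receptor genes were higher in VAT and 3 lower in all fits that left out 1 library and in all alternatives except library totals, where 4 were higher and Il15ra turned to -0.015. The number of genes called in VAT for rhythm, 299, was 196 with library totals, 1572 without the filter, 663 with DESeq2, 124 with the replicate block, 22 with the length slope, 42 with VAT fitted alone, 17 without ZT20 and 813 for any difference among the times; without 1 library it ran from 54 (without replicate A of VAT at ZT20) to 1008 (without replicate C of VAT at ZT0). The 2 receptor genes called in VAT became 1, Il2rg, with DESeq2 size factors and with the replicate block, 1 other gene, Il7r, with VAT alone, 4 without the filter, with DESeq2 and for any difference, and 0 with the slope and without ZT20 (0 to 4 without 1 library). In spleen 316 genes became 1446 without the filter, 853 with DESeq2, 171 with the replicate block, 103 with the slope and 584 with spleen alone (98 without replicate B and 569 without replicate A of spleen at ZT16), and the 2 receptor genes became 4 with DESeq2 and with spleen alone (1 to 4 without 1 library). The 1 gene that differed in rhythm, none of the 8, became 0 with DESeq2 size factors, library totals or the replicate block, 1547 without the filter, 22 with DESeq2, 3 with the slope and 24 without ZT20 (0 to 11 without 1 library), and 0 receptor genes passed in any of these fits. The causes were not tested. The replicate letters were not taken to pair the samples: over 17 pairs of VAT and spleen libraries of the same time and letter, deviations from the group means correlated at -0.301 to 0.196, 2 of them above 0.1, and 6 VAT libraries were closest to the spleen library of their letter. With the letter as a replicate block Il2ra in VAT had an amplitude of 0.41 (adjusted p = 0.086) and Il21r in spleen one of 0.49 (adjusted p = 0.0494), and the other rhythm calls of the 8 genes stood. Rhythm was read from 1 cycle of 6 times with 2 libraries at VAT ZT20, and depth limits Il9r in spleen and Il15ra in both tissues.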
